A study of Mus musculus with 63 samples.

Results

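The unfolded protein response and the integrated stress response were followed through 34 genes in peritoneal macrophages of mice that carried the R1441C change in their own Lrrk2 gene or were wild-type B6. The 34 genes were given as symbols and matched to the Ensembl identifiers of the count table, which lists 56748 genes. All 34 were found, and all 34 were among the 22147 genes that passed the filter on low counts. Lrrk2 encodes a large kinase whose R1441C form is linked to inherited Parkinson's disease, and the study asked how this form alters macrophage function with sex and age. The 63 libraries of polyadenylated RNA were labelled by genotype (32 wild-type and 31 knock-in), sex, age (27 young, from mice of 2 to 3 months, and 36 old, from mice of 18 to 21 months) and treatment (30 untreated and 33 with interferon-γ). Every animal had received 3% thioglycollate in the peritoneum 72 h before its cells were drawn, and buprenorphine against pain. Thioglycollate recruits macrophages, so that an elicited population was studied, and the share of resident cells in it was not examined. The cells that stuck to the plate were given 100 U of interferon-γ (IFN-γ) or water for 18 h.

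By label, the young untreated groups held 3 females and 3 males of the wild type and 5 females and 3 males of the knock-in. In the same order, the young IFN-γ groups held 3, 5, 2 and 3 libraries, the old untreated groups 5, 3, 5 and 3, and the old IFN-γ groups 5 each. The labels number replicates but name neither animals nor cultures, so that the p-values measure the spread between these libraries, which may in part be technical. Total counts per library ran from 73593674 through a median of 98245563 to 106644049.

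The unfolded protein response senses misfolded protein in the endoplasmic reticulum through 3 membrane proteins. These are IRE1α (gene Ern1), which splices the Xbp1 messenger RNA, PERK (gene Eif2ak3), which phosphorylates the translation factor eIF2α, and ATF6 (gene Atf6), which is cut to release a transcription factor. Other kinases of eIF2α answer to amino acid shortage, double-stranded RNA or lack of heme, and all of them feed the integrated stress response, in which ATF4 is translated and turns on genes of amino acid supply and redox balance. XBP1 and ATF6 turn on chaperones and the machinery that returns misfolded proteins to the cytosol for degradation (ER-associated degradation, ERAD). Macrophages secrete cytokines and carry large amounts of membrane protein through this compartment. The RNA levels measured here do not show the splicing of Xbp1, the cleavage of ATF6 or the phosphorylation of eIF2α.

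The labels were first checked against genes whose behaviour is known. Markers of macrophages were high in every library, with a summed level of 10 markers of 19470 to 39000 CPM (counts scaled to a common library size). The age label separated the libraries by their IFN-γ response genes, and the treatment label did not. Gbp2, a GTPase induced by IFN-γ, lay between 4372 and 7510 CPM under the label old and between 13.5 and 883 CPM under the label young. Split by treatment label its ranges were 16.7 to 6663 CPM (IFN-γ) and 13.5 to 7510 CPM (untreated). Ciita, the activator of antigen presentation genes, lay between 262 and 506 CPM under the label old and between 6.38 and 115 CPM under the label young. The age label and the level of IFN-γ response genes therefore cannot be told apart in these libraries. Every difference by age label below is a difference between these 2 sets of libraries. Since the treatment label did not separate these genes, a difference by treatment label is likewise one between labelled libraries. Whether it shows a response to IFN-γ cannot be told. Libraries called IFN-γ or untreated are those so labelled. B cell RNA went with the treatment label instead: Cd79a, part of the B cell receptor, lay between 4.92 and 311 CPM in IFN-γ libraries and between 1.42 and 12.3 CPM in untreated ones. Libraries that differed only in the age label shared their pattern of immunoglobulin variable segments in 11 of 123 pairs (correlation above 0.4), against 0 of 123 pairs that differed only in the treatment label. The 11 were all pairs of IFN-γ libraries, which held 1939 to 58063 counts of these segments. Every pair that differs only in the treatment label holds an untreated library, with 705 to 2534 counts. The 2 shares therefore cannot be set against each other. Within groups 8 of 102 pairs shared the pattern, and whether such libraries came from the same animal was not tested. In knock-in old IFN-γ females, libraries 4 and 5 had 1.69 and 1.55 CPM of Xist, a transcript of the inactive X chromosome, where the 3 others had 173 to 208 CPM. For the 3 knock-in males labelled old and untreated, another label field says IFN-γ. The 2 libraries with the most Cd79a were wild-type IFN-γ females, library 2 of those labelled old (197 CPM) and library 1 of those labelled young (311 CPM). These 2 and the 2 with little Xist are called below the 4 libraries that stand apart, and results are given without them, or without the 3 males, where that changes a call or moves a count by more than 1.5 times. Calls of single genes by age or treatment label within 1 combination of the other labels were not examined this way.

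Levels of different genes were compared on the per-length scale (the authors' FPKM). Calr, which encodes the chaperone calreticulin, was the most abundant of the 34 in libraries of either age label, with a median of 698 FPKM in those labelled old and 355 FPKM in those labelled young. Pdia3 followed with medians of 339 and 185 FPKM, and Hspa5, the third in libraries labelled old and the fourth in those labelled young, had 298 and 159 FPKM. The sensors were low, with Eif2ak3 at a median of 4.77 and 4.87 FPKM, Ern1 at 5.42 and 7.515 FPKM and Atf6 at 11.02 and 14.9 FPKM. Chac1 and Derl3 were the 2 least abundant members in both sets, with medians of 1.17 and 0.12 FPKM in libraries labelled old. All other values below are CPM, which compare 1 gene between libraries, or differences of their log2.

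The chaperones of the endoplasmic reticulum were higher in the libraries labelled old. Averaged over the 8 combinations of genotype, sex and treatment label, 25 of the 34 genes were higher with the label old, 4 were lower and 5 did not pass the test (edgeR's quasi-likelihood test, Benjamini-Hochberg adjusted p under 0.05). Over all genes tested, 31.9% were higher and 38.9% were lower in that comparison. The median log2 change was 0.65 for the 34 genes and -0.07 for all genes tested. In these bulk samples a change in the RNA of each cell and a change in the share of cells that hold it cannot be told apart. Of the 14 chaperones and folding enzymes, 13 were higher and 1 was lower, with a median log2 change of 0.91.

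Hspa5 encodes BiP, the HSP70 chaperone of the endoplasmic reticulum that holds the 3 sensors inactive. Its level ran from 1006 through a median of 1286 to 1466 CPM under the label old (36 libraries), and from 520 through 676.5 to 852 CPM in the 27 labelled young. The lowest library labelled old lay above the highest labelled young. The log2 change was 0.93 ± 0.04 (SE, adjusted p = 1.08e-27). Creld2, a small endoplasmic reticulum protein with disulfide isomerase activity, ran from 58.5 through 72.0 to 89.8 CPM against 19.7 through 24.9 to 32.7 CPM. It had the largest change among the chaperones, 1.54 ± 0.04 (adjusted p = 8.9e-39), and the groups did not overlap. Creld2 also stood farthest from its own spread: its change was 11.7 times the SD of log2 CPM within groups, where that of Hspa5 was 6.38 times.

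The promoters of these 2 genes are printed because Hspa5 and Creld2 are classical targets of ATF6 and XBP1 and because both carry the endoplasmic reticulum stress element, the sequence these factors are known to bind. The 250 bases before the start of transcription are shown 5′ to 3′ on the gene's strand, from RefSeq on GRCm38.p6, for Hspa5 at chr2:34771840-34772089 (plus strand) and for Creld2 at chr15:88819396-88819645 (plus strand). Capitals mark the fixed letters of the element, CCAAT and CCACG with 9 free bases between them, which in Creld2 lies on the opposite strand.
Hspa5: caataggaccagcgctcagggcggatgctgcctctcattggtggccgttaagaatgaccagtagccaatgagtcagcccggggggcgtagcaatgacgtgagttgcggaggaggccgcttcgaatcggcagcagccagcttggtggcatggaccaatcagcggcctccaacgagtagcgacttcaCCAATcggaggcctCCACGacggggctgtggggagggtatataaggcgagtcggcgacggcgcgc
Creld2: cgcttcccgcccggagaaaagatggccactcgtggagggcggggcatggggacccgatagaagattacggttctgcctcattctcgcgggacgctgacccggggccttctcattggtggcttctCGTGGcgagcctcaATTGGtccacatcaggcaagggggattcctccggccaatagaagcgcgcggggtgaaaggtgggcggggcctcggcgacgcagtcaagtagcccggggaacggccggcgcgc

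The element, searched on both strands with no mismatch, was found in 37 of 32851 promoters of this length (0.113%), which belong to 35 of 27025 genes. A promoter was listed for 30 of the 34 genes, and 9 of these held the element: Hspa5, Creld2, Hsp90b1, Dnajc3, Pdia6, Calr, Canx, Syvn1 and Derl3. Hsp90b1 held it at 2 places. With the label old, 8 of the 9 were higher and Derl3 was not called, where 25 of all 34 genes were higher. Canx, among the 8, was not called without the 3 knock-in old untreated males. In Hspa5 the element spans the bases 65 to 47 before the start, and in Creld2 the bases 126 to 108. The second form of the element, ATTGG and CCACG with 1 free base between them, was found in 10 promoters (0.0304%), one of them that of Herpud1, where the first form had no match. The XBP1 and ATF6 motif TGACGTGG was found in 185 promoters (0.563%) and in 0 of the 30. A match describes letters in this window and is neither a measured site nor a cause, and windows without one say nothing of the factors.

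The other chaperones had the same direction with 1 exception. Sdf2l1, a partner of BiP, ran from 120 through 159 to 239 CPM with the label old and from 48.9 through 70.0 to 105 CPM with the label young (log2 change 1.31 ± 0.06, adjusted p = 4.89e-25). Manf, a secreted endoplasmic reticulum stress protein, ran from 102 through 138 to 181 CPM against 35.6 through 54.9 to 75.6 CPM (1.46 ± 0.06, adjusted p = 1.11e-29). Neither gene's groups overlapped. Calr, the lectin chaperone that was most abundant, changed by 1.04 ± 0.05, while its membrane-bound partner calnexin, Canx, ran from 492.5 to 737 CPM against 406 to 739 CPM and changed by 0.11 ± 0.04 (adjusted p = 0.0126). Without the 3 knock-in old untreated males Canx was not called (0.08, adjusted p = 0.0839). The disulfide isomerases Pdia3, Pdia4 and Pdia6 changed by 0.92 ± 0.05, 0.88 ± 0.05 and 0.99 ± 0.05. Hsp90b1 (GRP94), Hyou1 (GRP170, an HSP110-type chaperone) and the BiP co-chaperone Dnajb11 changed by 0.85 ± 0.04, 0.87 ± 0.04 and 0.90 ± 0.03. Dnajc3, which also inhibits PERK, was higher by 0.47 ± 0.04. Dnajb9 (ERdj4), which recruits BiP to IRE1α and represses it, was the exception and was lower by -0.17 ± 0.04 (adjusted p = 3.26e-05), with 24.8 to 37.3 CPM against 32.1 to 40.1 CPM.

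**Figure D1:**
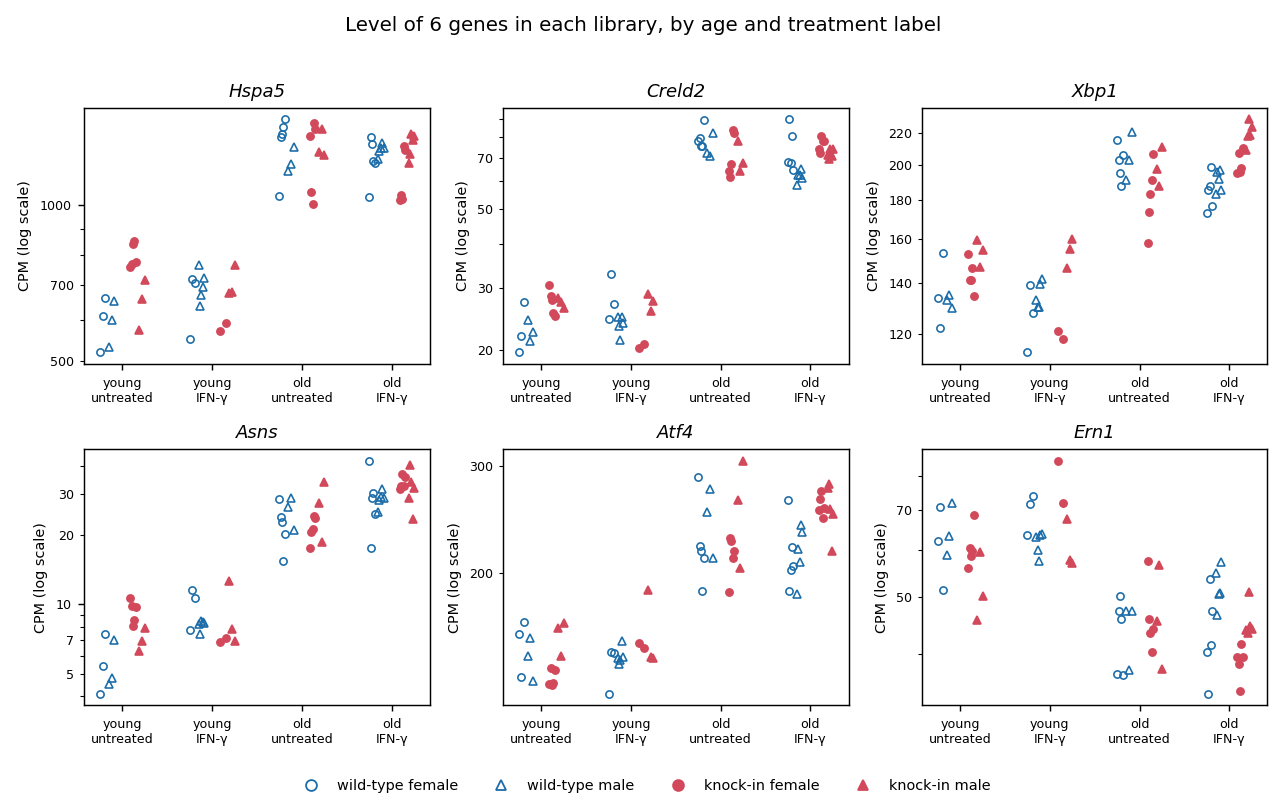
CPM on log axes of Hspa5, Creld2, Xbp1, Asns, Atf4 and Ern1 in each of the 63 libraries (points), by group. Libraries labelled old lie above those labelled young for Hspa5, Creld2 and Asns without overlap, and most lie below them for Ern1.

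Of the 3 sensors, 2 were lower with the label old and none was higher. Ern1 ran from 34.3 through 44.4 to 57.5 CPM with the label old and from 45.6 through 62.1 to 84.8 CPM with the label young. Its log2 change was -0.50 ± 0.04 (adjusted p = 4.22e-15), and the groups overlapped. Atf6 ran from 82.6 through 104 to 134 CPM against 97.1 through 138 to 154 CPM (-0.33 ± 0.04, adjusted p = 9.48e-10), again with overlap. Eif2ak3 had medians of 29.59 and 29.55 CPM and a log2 change of -0.03 ± 0.04 (adjusted p = 0.631, 95% interval -0.12 to 0.06).

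Of the 4 transcription factors, 3 were higher and 1 was lower. Xbp1, whose spliced form drives chaperone and ERAD genes, ran from 158 through 197 to 229 CPM with the label old and from 114 through 139 to 160 CPM with the label young. The change of 0.53 ± 0.02 (adjusted p = 2.61e-26) was small beside that of Creld2, but Xbp1 had the smallest spread within groups of the 34 genes (SD 0.085 on the log2 scale). Atf4, the main factor of the integrated stress response, ran from 185 through 228 to 306 CPM against 127 through 146 to 188 CPM (0.67 ± 0.04, adjusted p = 3.8e-21). Xbp1 and Atf4 overlapped between the label sets as a whole, but in each of the 8 combinations of genotype, sex and treatment label every library labelled old lay above every one labelled young. Ddit3, which encodes the death-linked factor CHOP, ran from 10.5 through 15.6 to 22.3 CPM against 8.30 through 11.7 to 19.1 CPM. It was higher by 0.35 ± 0.07 (adjusted p = 1.82e-05), but was called in only 3 of the 8 combinations. Atf3, an early stress factor that other signals induce too, was lower by -0.44 ± 0.05 (adjusted p = 2.25e-10), with 193 through 272 to 382 CPM against 109 through 375 to 458 CPM. The 109 CPM belonged to library 1 of wild-type young IFN-γ females.

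All 6 genes grouped here as downstream of ATF4 were higher with the label old, with a median log2 change of 1.59. Of these, 3 (Asns, Chac1 and Trib3) had the largest changes of the 34. Atf3 and Ddit3 are counted with the transcription factors, and other targets of ATF4, compared below, went both ways. Asns encodes asparagine synthetase, a classical ATF4 target of the amino acid response. It ran from 15.4 through 28.5 to 41.9 CPM in libraries labelled old and from 4.09 through 7.83 to 12.7 CPM in those labelled young, without overlap. Its log2 change of 1.84 ± 0.08 (adjusted p = 4.17e-28), a 3.58-fold difference, was the largest of the 34. Among untreated wild-type females the 5 libraries labelled old had 28.7, 23.9, 22.8, 15.4 and 20.3 CPM, and the 3 labelled young had 4.09, 5.39 and 7.44 CPM. Psat1, an enzyme of serine synthesis, ran from 34.4 through 72.6 to 104 CPM against 17.8 through 23.6 to 36.1 CPM (1.54 ± 0.06, adjusted p = 1.12e-28). The 2 sets overlapped in Psat1 only between the lowest libraries labelled old and the highest labelled young.

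Trib3, a pseudokinase that restrains ATF4, ran from 6.515 through 12.3 to 20.6 CPM against 2.605 through 3.64 to 6.532 CPM (1.64 ± 0.08, adjusted p = 1.09e-24). The sets met only at their ends, and no library labelled young lay above one labelled old within a combination. Chac1, an enzyme that breaks down glutathione, was scarce, with 0.801 through 1.93 to 3.03 CPM against 0.121 through 0.613 to 1.22 CPM (1.65 ± 0.11, adjusted p = 7.1e-19). Chac1 was higher in all 8 combinations, and it had the widest spread within groups apart from Derl3 (SD 0.481 on the log2 scale). The other 2 genes of this role changed less. Sesn2, an inhibitor of the growth kinase mTORC1, was higher by 0.34 ± 0.04 and Ppp1r15a (GADD34), which brings a phosphatase to eIF2α, by 0.26 ± 0.06 (adjusted p = 0.000171).

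The promoters of Asns and Chac1 are printed because both genes were among the 3 with the largest change and both hold the letters of an element that ATF4 binds together with C/EBP factors. They are shown as above, Asns at chr6:7693210-7693459 (minus strand) and Chac1 at chr2:119350992-119351241 (plus strand). Capitals mark the fixed letters of TGATGNAA, which in Chac1 lies on the opposite strand.
Asns: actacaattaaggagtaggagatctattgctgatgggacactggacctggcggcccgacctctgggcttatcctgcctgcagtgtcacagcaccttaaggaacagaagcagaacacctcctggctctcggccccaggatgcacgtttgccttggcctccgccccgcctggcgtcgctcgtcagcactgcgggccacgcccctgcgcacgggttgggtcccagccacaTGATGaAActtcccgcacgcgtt
Chac1: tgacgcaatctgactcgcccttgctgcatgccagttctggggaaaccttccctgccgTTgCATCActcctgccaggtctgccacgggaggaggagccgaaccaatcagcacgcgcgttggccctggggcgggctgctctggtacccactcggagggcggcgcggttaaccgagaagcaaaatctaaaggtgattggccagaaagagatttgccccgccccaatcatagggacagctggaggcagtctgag
This short element was found in 1134 of the 32851 promoters (3.45%), so a chance match is common. It was present in 4 of the 30 promoters, those of Asns, Chac1, Herpud1 and Atf3. Of these 4 genes, 3 were higher with the label old and Atf3 was lower, where 25 of all 34 genes were higher.

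The 7 ERAD genes were less uniform, with 3 higher and 4 not called. Herpud1, a scaffold of the degradation complex that carries both the second stress element and the ATF4-type element, ran from 29.5 through 36.7 to 44.8 CPM with the label old and from 21.9 through 25.1 to 51.7 CPM with the label young (0.51 ± 0.04, adjusted p = 6.41e-16). The 51.7 CPM came from library 1 of wild-type young IFN-γ females, and the next highest value of that group was 28.8 CPM. Syvn1 (HRD1), the ubiquitin ligase of the complex, was higher by 0.38 ± 0.02 and Selenos, a selenoprotein that links it to p97, by 0.74 ± 0.04. The partner of HRD1, Sel1l, changed by -0.09 ± 0.04 (adjusted p = 0.0705) and the lectin Edem1 by 0.00 ± 0.05 (adjusted p = 0.98). Derl1, a channel component, changed by 0.07 ± 0.03 (adjusted p = 0.0538), and its relative Derl3 by 0.63 ± 0.33 (adjusted p = 0.0876).

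Group means ranged little beside the difference between the age labels. Hspa5 had means from 1137 ± 143 CPM (SD, n = 5, knock-in IFN-γ females) to 1332 ± 167 CPM (n = 5, wild-type untreated females) in the 8 groups labelled old, and from 581 ± 15.0 (n = 2) to 800 ± 42.8 CPM (n = 5), both knock-in females, in the 8 labelled young. Asns had 21.4 ± 2.65 (n = 5) to 34.02 ± 2.25 CPM (n = 5) against 5.45 ± 1.36 (n = 3) to 9.98 ± 1.98 CPM (n = 3). Of the transcription factors, Xbp1 had means from 183 ± 18.2 (n = 5) to 220 ± 7.38 CPM (n = 5) against 120 ± 2.13 (n = 2) to 154 ± 6.84 CPM (n = 3). For these 3 genes every group mean labelled old was above every one labelled young. Ddit3 had 13.01 ± 2.43 (n = 5) to 19.5 ± 1.05 CPM (n = 5) against 9.60 ± 1.36 (n = 5) to 16.2 ± 0.204 CPM (n = 2), so that its group means crossed. The highest young mean of Ddit3 and the lowest young means of Hspa5, Creld2, Sdf2l1 and Xbp1 belonged to the same 2 libraries, the IFN-γ knock-in females.

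**Figure D2:**
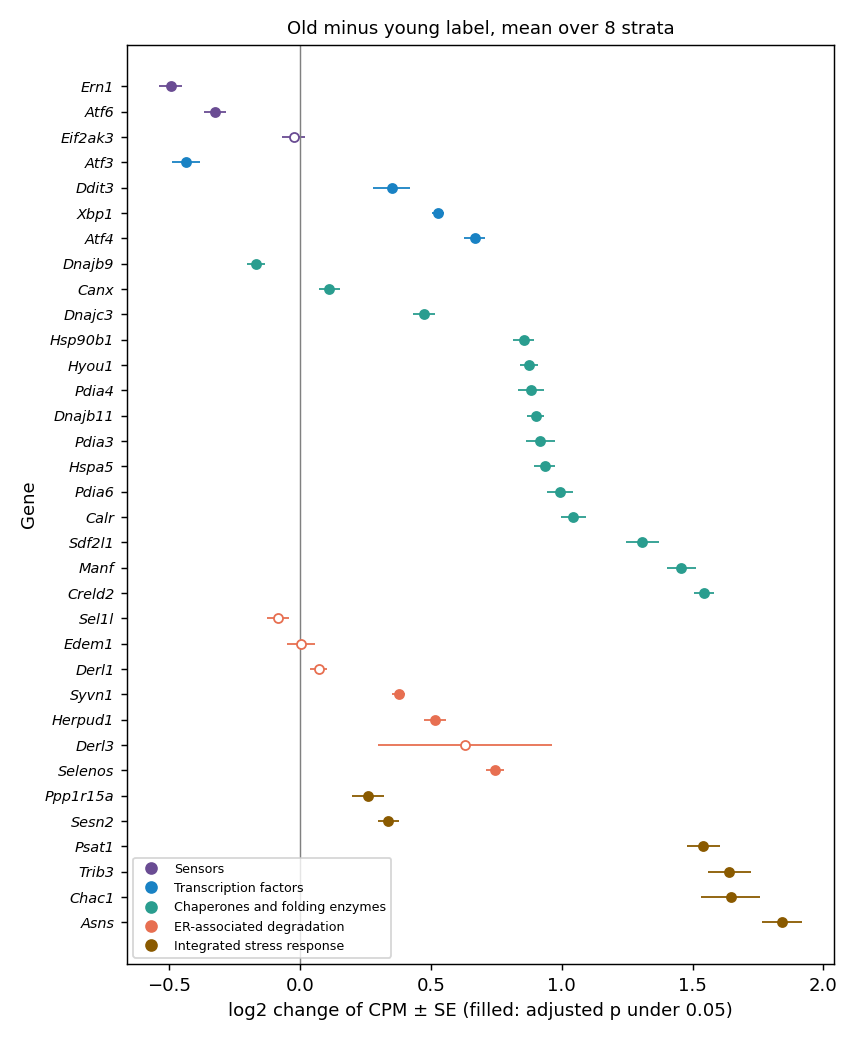
Log2 change of each of the 34 genes between libraries labelled old and young, averaged over the 8 combinations of genotype, sex and treatment label, with bars of 1 SE, ordered by size within each role. Filled points passed the test. The genes downstream of ATF4 reach 1.84, the chaperones 1.54, and Ern1 is lowest at -0.50.

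Most of the 34 genes were called in each of the 8 combinations. Among untreated wild-type females 23 genes were higher and 3 lower with the label old, where 22% and 22.5% of all genes tested were, and among their male counterparts 23 and 2 (18.7% and 18.1%). In untreated knock-in libraries the counts were 22 and 4 for females (22% and 22.8%) and 23 and 1 for males (16.4% and 15.7%). With the IFN-γ label they were 22 and 3 in wild-type females (17.8% and 19.2%), 23 and 1 in their male counterparts (19.3% and 20.1%), then 23 and 3 in females of the knock-in (23% and 26.4%) and 22 and 2 in its males (18.4% and 17.1%). In all 8, 20 of the 34 genes were higher, and 0 were lower in all 8. Edem1, Sel1l and Derl3 were called in none of the 8. Derl1 was the 1 gene called in both directions. It was lower only in wild-type IFN-γ females (-0.27 ± 0.09, adjusted p = 0.0155), with 132 to 158 CPM against 225, 150 and 145 CPM. The 225 CPM belonged to young library 1, which stands apart, and the call was not examined without that library. With replicate numbers as a block, the count of lower genes changed from 1 to 3 in wild-type IFN-γ males and from 2 to 1 in knock-in IFN-γ males, where those numbers pair the libraries. Across all 63 libraries, 12 of the 34 genes were higher with the label old without overlap and 0 were lower, where 4.79% and 1.84% of all genes tested were. The 12 were Hspa5, Creld2, Hsp90b1, Dnajb11, Sdf2l1, Pdia3, Pdia6, Manf, Calr, Hyou1, Asns and Selenos.

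For some genes the smallest and the largest change of the 8 combinations both fell in knock-in females. Among untreated knock-in females, the change was 0.65 for Hspa5, 0.94 for Sdf2l1, 1.09 for Manf and 1.19 for Asns, each the smallest of the 8. Among IFN-γ knock-in females it was 1.81 for Sdf2l1, 1.98 for Manf and 2.28 for Asns, each the largest of the 8. Manf, of these genes, had 75.6, 66.3, 64.6, 62.9 and 49.1 CPM in the 5 young untreated knock-in females and 35.6 and 39.4 CPM in the 2 young IFN-γ ones. The difference between these 2 combinations alone was not tested. The interactions of the age label with genotype, treatment label and sex, each taken over all combinations, called 0 of the 34 genes in edgeR and in DESeq2, and edgeR called 0%, 0.497% and 0.0135% of all genes tested. At an unadjusted p under 0.05 they held 0, 3 and 3 of the 34.

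**Figure D3:**
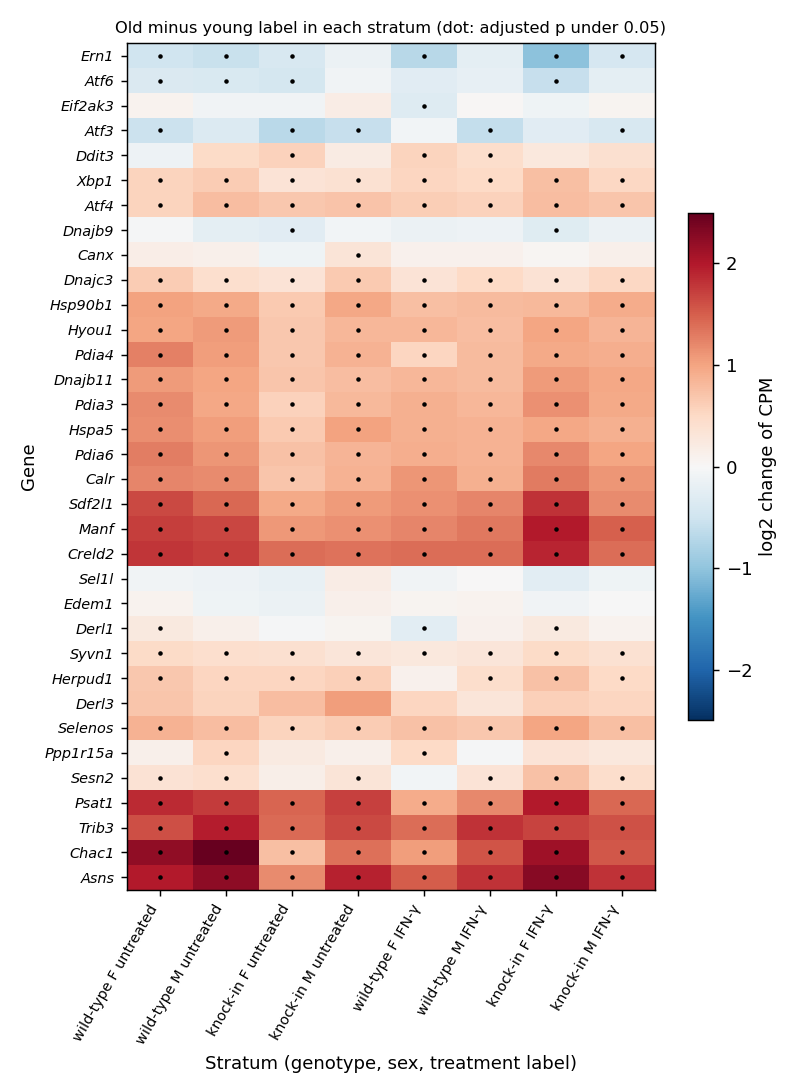
Log2 change with the age label (colour scale) of each of the 34 genes in each of the 8 combinations of genotype, sex and treatment label, with a dot where the test was passed. The 20 genes that were higher in all 8 combinations are red and dotted throughout, while Edem1, Sel1l and Derl3 were called in none.

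Other genes of the same pathways, from lists that do not hold any of the 34, were compared in the same way, and their counts stand beside the 31.9% of all genes that were higher and the 38.9% that were lower. Of 17 tested genes of translocation into the endoplasmic reticulum, 14 were higher with the label old and 2 were lower (median log2 change 0.30). The subunits Ssr2, Sec61g and Sec61a1 changed by 0.74 ± 0.04, 0.80 ± 0.05 and 0.44 ± 0.03, and Sec62 and Sec11c by -0.11 ± 0.03 and -0.09 ± 0.04. Of 28 other folding genes, 14 were higher and 9 were lower (median 0.14). The thioredoxin-like Erp44 changed by 0.62 ± 0.04, the Toll-like receptor chaperone Cnpy3 by 0.56 ± 0.03 and the disulfide protein Txndc11 by 0.43 ± 0.03. Uggt2, a relative of the glycoprotein folding sensor, changed by -1.02 ± 0.06, the prolyl isomerase Fkbp11 by -1.20 ± 0.11 and the J-protein Dnajb12 by -0.24 ± 0.02. Of 20 other ERAD genes, 12 were higher and 4 were lower (median 0.09), with the signal peptide peptidase H13 at 0.69 ± 0.04 and the mannosidase Edem3 at -0.39 ± 0.06.

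Of 13 other regulators of the unfolded protein response, 5 were higher and 6 lower, shares near those of all genes. The anti-apoptotic membrane protein Tmbim6 changed by 0.81 ± 0.03 and the membrane-bound factor Creb3 by 0.81 ± 0.03. Mbtps2, the site-2 protease that cuts ATF6, changed by -0.65 ± 0.05 and Creb3l2 by -0.30 ± 0.06. Of 14 kinases, subunits and regulators around eIF2, 10 were higher and 2 were lower (median 0.42). Eif2ak2 encodes PKR, the eIF2α kinase for double-stranded RNA and a known interferon-induced gene, and it changed by 1.11 ± 0.04. Ppp1r15b, the constitutive partner of the eIF2α phosphatase, changed by 0.70 ± 0.03. Eif2ak4, which encodes GCN2, the kinase for amino acid shortage, changed by -0.14 ± 0.04 and its inhibitor Impact by -0.44 ± 0.05.

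Among 29 tested other targets of ATF4, 16 were higher and 9 were lower (median 0.29). The mitochondrial folate enzyme Mthfd2 changed by 2.02 ± 0.06 and the transcription factor Jdp2 by 2.47 ± 0.08, both above Asns. The proline synthesis enzyme Aldh18a1 changed by 0.92 ± 0.04. In the other direction, Gadd45a changed by -1.12 ± 0.06, the secreted stress protein Gdf15 by -1.17 ± 0.12 and the ATF4 partner Cebpg by -0.38 ± 0.02. Of 20 aminoacyl-tRNA synthetases, many of which ATF4 induces, 18 were higher and 0 were lower (median 0.63). Wars, a synthetase also known as an IFN-γ-induced gene, changed by 3.07 ± 0.07, Kars by 1.08 ± 0.03 and Gars by 0.96 ± 0.03. Of 14 cytosolic and mitochondrial heat shock genes, 11 were higher and 2 were lower (median 0.44). Hspe1, Hspa8 and Hsp90ab1 changed by 0.92 ± 0.04, 0.66 ± 0.03 and 0.72 ± 0.04, and Bag3 and Hspb1 by -0.40 ± 0.03 and -0.81 ± 0.14.

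Marker lists of other cells were compared in the same way. All 10 mesothelial and fibroblast markers were lower with the label old, with summed levels of 16.4 to 400 CPM against 41.2 to 610 CPM. Of 5 tested granulocyte markers, 3 were higher and 1 was lower, and the sum of the 8 on that list was 34.8 to 93.7 CPM against 17.5 to 36.7 CPM. Of 10 T and NK cell markers, 4 were higher and 2 lower, with sums of 2.25 to 24.2 CPM against 1.35 to 28.0 CPM. In the B cell, plasma cell and mast cell lists 3 of 10, 4 of 10 and 1 of 7 were lower and none was higher, shares near or below the 38.9% of all genes that were lower. Of 10 macrophage markers, 4 were higher and 5 were lower, with summed levels of 19470 to 34410 CPM against 24510 to 39000 CPM. No marker of these lists was at 0 in every library. Their part in the differences above was not tested.

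By treatment label, the 34 genes were called about as often as genes in general. Averaged over sex and age label, 6 genes were higher and 3 lower in IFN-γ libraries of the wild type, where 15.4% and 15.9% of all genes tested were. In knock-in, 1 was higher and 1 was lower, where 3.35% and 4.42% of all genes were. The median log2 change of the 34 was 0.05 in wild-type and -0.06 in knock-in. Of the 14 chaperones, 1 was higher in wild-type (Pdia4) and 1 was lower in knock-in (Hsp90b1), with medians of 0.05 and -0.13. Hspa5 changed by 0.08 ± 0.05 in wild-type (adjusted p = 0.257, 95% interval -0.03 to 0.19) and by -0.12 ± 0.06 in knock-in (adjusted p = 0.187, -0.23 to -0.01), and Creld2 by -0.01 ± 0.05 and -0.07 ± 0.05. Between the age labels these 2 genes changed by 0.93 and 1.54.

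In wild-type, the genes grouped as downstream of ATF4 went both ways. Chac1, Asns and Sesn2 were higher, Ppp1r15a was lower, and Trib3 and Psat1 were not called. Chac1 was higher with the IFN-γ label by 0.81 ± 0.16 (adjusted p = 0.000131) and Asns by 0.49 ± 0.10 (adjusted p = 0.000182). Asns had 41.9, 17.6, 28.9, 30.4 and 24.7 CPM in old IFN-γ females against 28.7, 23.9, 22.8, 15.4 and 20.3 CPM in old untreated females, so that single groups overlapped. Among young wild-type males Asns was not called (0.59 ± 0.21, adjusted p = 0.256). It had there 7.45 to 8.45 CPM with the label and 4.53 to 7.01 CPM without it, with no overlap. Eif2ak3 was higher by 0.30 ± 0.06 (adjusted p = 0.000222), Sesn2 by 0.18 ± 0.05 (adjusted p = 0.00747) and Pdia4 by 0.18 ± 0.07 (adjusted p = 0.0272). Pdia4 was not called without the 4 libraries that stand apart (0.12, adjusted p = 0.135). Its call was also lost when 1 of 5 wild-type libraries was left out, with changes from 0.15: young IFN-γ female 1, young untreated female 1, old untreated male 1 or 2, or young untreated male 1. The 3 lower genes were the transcription factors Atf3 and Ddit3 and the phosphatase partner Ppp1r15a. The changes were for Atf3 -0.48 ± 0.07 (adjusted p = 1.6e-06), for Ppp1r15a -0.37 ± 0.08 (adjusted p = 0.000499) and for Ddit3 -0.33 ± 0.10 (adjusted p = 0.0069). With replicate numbers as a block, 5 genes in place of 3 were lower. In knock-in, Trib3 was higher by 0.43 ± 0.11 (adjusted p = 0.00853) and Hsp90b1 was lower by -0.17 ± 0.06 (adjusted p = 0.0477). The call of Hsp90b1 was lost in 40 of the 63 fits that left out 1 library, and without the 4 libraries that stand apart 9 genes were called in knock-in in place of 2.

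Derl3 had the largest change with the treatment label among wild-type libraries, 1.76 ± 0.41 (adjusted p = 0.000866), and its values were high in females. Derl3, a relative of Derl1 known from secretory cells, had 0.833, 1.29, 4.78, 5.11 and 0.315 CPM in wild-type old IFN-γ females and 1.28, 3.56 and 0.236 CPM in young ones. In the 14 other groups its means lay between 0.08 and 0.39 CPM. In those same 5 old females, Jchain, the joining chain of secreted antibodies, had 6.72, 9.89, 21.8, 17.7 and 1.21 CPM, and Mzb1, a plasma cell chaperone, 3.88, 14.6, 5.08, 3.95 and 1.45 CPM. Over all libraries, Mzb1 ran from 0.138 to 18.5 CPM in IFN-γ libraries and from 0.05 to 0.459 CPM in untreated ones. In wild-type, 9 of 10 B cell markers, 8 of 10 plasma cell markers, 8 of 10 T and NK cell markers and 7 of 7 mast cell markers were higher with the IFN-γ label. The B cell marker Cd22 (-0.27 ± 0.05) and the plasma cell marker Sdc1 (-0.72 ± 0.14) were lower. In knock-in the counts of higher markers were 9, 6, 6 and 0, and none was lower. Summed B cell markers ran from 136 to 1512 CPM in IFN-γ libraries and from 108 to 194 CPM in untreated ones. The part of these cells in the changes with the treatment label was not tested.

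**Figure D4:**
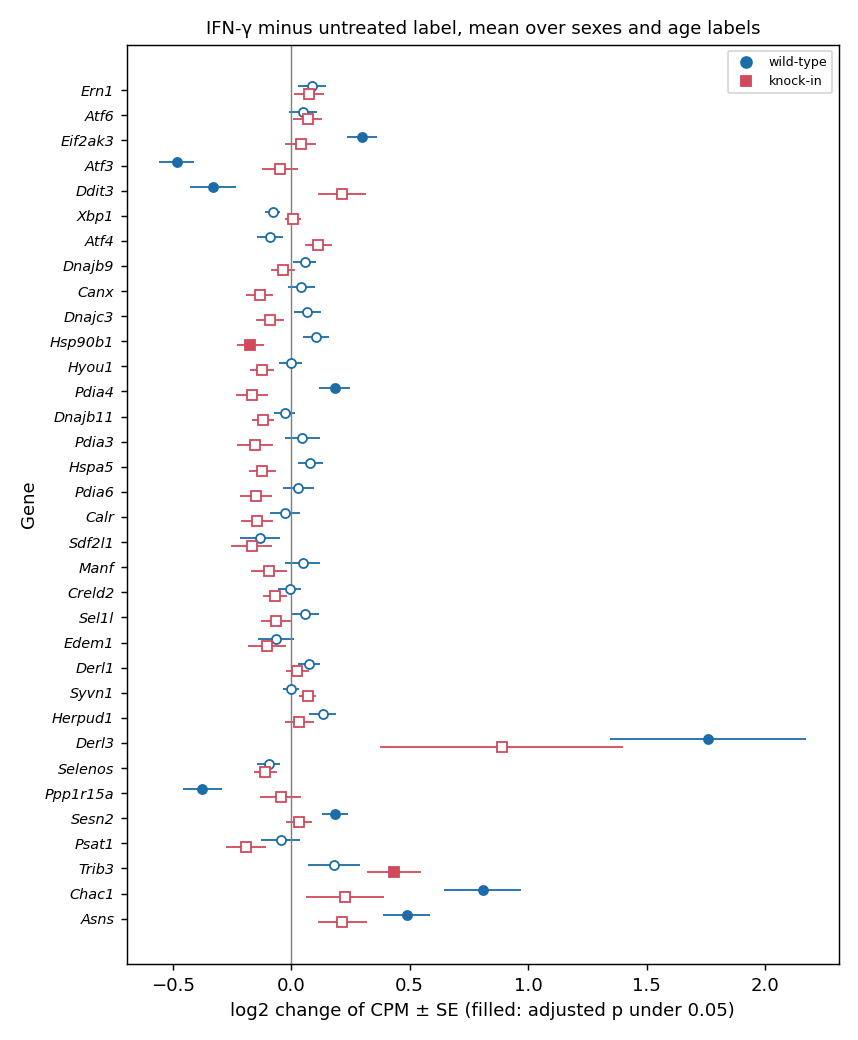
Log2 difference between libraries labelled IFN-γ and untreated for each of the 34 genes, shown separately for the 2 genotypes and averaged over sex and age label, with bars of 1 SE. Filled points passed the test. Most genes lie near 0 in both genotypes, and Derl3 is highest with 1.76 in wild-type.

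Young knock-in females were the combination in which most of the 34 genes moved with the treatment label. Here 15 genes were lower with the IFN-γ label and 2 were higher, where 10.1% and 11.8% of all genes tested were. The 2 IFN-γ libraries were set against 5 untreated ones. Markers of other cells differed in the same comparison: 9 of 10 B cell and 5 of 10 plasma cell markers were higher, and 5 of 10 mesothelial and fibroblast markers were lower, with sums of 111 to 128 CPM against 485 to 610 CPM. The remaining B cell marker was lower. The part of these cells in the changes of the 34 genes was not tested. Sdf2l1 had 48.9 and 50.8 CPM against 105, 88.0, 87.0, 81.6 and 72.6 CPM (log2 change -0.80 ± 0.20, adjusted p = 0.00435), and Hspa5 had 570 and 591 CPM against 761 to 852 CPM (-0.46 ± 0.13, adjusted p = 0.00708). Neither gene overlapped. The 15 calls rest on both IFN-γ libraries: without library 1, and with the other assumed to vary like the other groups, 0 genes were called lower, and without library 2 there were 3. Of the 15 lower genes, 12 were chaperones, and the others were Psat1, Selenos and Xbp1. Ern1 and Ddit3 were higher, by 0.37 ± 0.14 (adjusted p = 0.0416) and 0.65 ± 0.22 (adjusted p = 0.0256). In young wild-type females, 8 genes were higher and 1 was lower, where 10% and 6.52% of all genes were. These were Derl3, Chac1, Asns, Eif2ak3, Herpud1, Pdia4, Sesn2 and Derl1, with Atf3 lower. In IFN-γ library 1, which stands apart, Herpud1, Derl1, Eif2ak3, Pdia4 and Sesn2 were highest and Atf3, Chac1 and Asns lowest of that group. Herpud1 had 51.7, 28.8 and 28.3 CPM against 22.6 to 25.2 CPM in untreated libraries. The calls of these genes were not examined without library 1. In the same young females 9 of 10 B cell, 7 of 7 mast cell and 7 of 10 T and NK cell markers were higher. So were 6 of 10 plasma cell markers and 5 of 6 IFN-γ response genes, and 1 B cell marker was lower. The part of these cells and of that response was not tested. In old wild-type females Derl3 and Chac1 were higher and Psat1, Sdf2l1, Atf3, Selenos and Dnajb11 lower (9.13% and 11% of all genes). In old knock-in females Chac1, Trib3, Asns and Sesn2 were higher (2.77% of all genes) and none was lower, and in old wild-type males Ppp1r15a and Atf3 were lower (1.81% of all genes). In young males of either genotype and in old knock-in males 0 of the 34 were called in edgeR and in DESeq2. At an unadjusted p under 0.05 these held 6 in young wild-type, 0 in young knock-in and 2 in old knock-in males, and 0.438%, 0.0813% and 0.176% of all genes were called.

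Genotype changed few of the 34 genes. Averaged over the 8 combinations of sex, age label and treatment label, 1 was higher in knock-in and 1 was lower, where 0.483% and 0.673% of all genes tested were. Psat1 was higher by 0.24 ± 0.06 (adjusted p = 0.0274) and Eif2ak3 was lower by -0.17 ± 0.05 (adjusted p = 0.0467). Neither held throughout: the call of Eif2ak3 was lost in 37 of the 63 fits that left out 1 library and that of Psat1 in 4 (either young IFN-γ knock-in female, old untreated knock-in male 5 or young untreated wild-type female 4), and with libraries of 1 group that share variable segments summed neither was called. The 14 chaperones were within 0.09 of 0 in either direction, and the 95% interval was -0.04 to 0.12 for Hspa5, -0.03 to 0.11 for Creld2 and 0.00 to 0.16 for Atf4. In 5 of the 8 combinations edgeR called 0 of the 34 genes. In 4 of them, old untreated females, young untreated males, young IFN-γ males and old untreated males, DESeq2 called 0 too, 4, 6, 4 and 0 genes had an unadjusted p under 0.05, and 0.0181%, 0.0135%, 0.149% and 0.00452% of all genes were called. In the fifth, young untreated females, the result depended on the model: edgeR called 0 (0.452% of all genes), 16 genes had an unadjusted p under 0.05, and DESeq2 called 9. There Hspa5 had 761 to 852 CPM in 5 knock-in libraries and 520 to 663 CPM in 3 wild-type ones, without overlap (0.42 ± 0.11, adjusted p = 0.0507). Lrrk2 itself had group means of 109 to 169 CPM in the 8 groups labelled old and 25.3 to 105 CPM in the 8 labelled young, which is no check of the R1441C change, since a change of 1 codon does not show in a gene's count.

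Young IFN-γ females held most of the genotype calls, with 8 genes lower in knock-in, where 3.79% of all genes tested were, and none higher. Sesn2 had 13.5 and 12.4 CPM in the 2 knock-in libraries and 26.9, 18.6 and 19.1 CPM in the 3 wild-type ones (-0.74 ± 0.14, adjusted p = 0.000963). Derl1 had 125.5 and 119.5 CPM against 225, 150 and 145 CPM (-0.50 ± 0.12, adjusted p = 0.00624), and Herpud1 had 24.0 and 23.7 CPM against 51.7, 28.8 and 28.3 CPM (-0.60 ± 0.15, adjusted p = 0.00831). In all 3 genes library 1 of the wild-type group was the highest, and that library also had the most Cd79a of all 63, 311 CPM. Creld2, Manf and Pdia4 were lower by -0.45 ± 0.12, -0.63 ± 0.19 and -0.56 ± 0.17, Eif2ak3 by -0.54 ± 0.16 and Derl3 by -3.15 ± 0.86. In the same comparison 3 of 10 T and NK cell, 2 of 10 B cell and 1 of 7 mast cell markers were lower in knock-in and none was higher, and Gbp2 had 24.3 and 235 CPM in knock-in against 655 to 883 CPM in wild-type. Their part in these differences was not tested. Without library 1 of wild-type, the changes were -0.25 for Herpud1, -0.26 for Derl1, -0.20 for Eif2ak3 and -0.38 for Pdia4, and none of these 4 was called. Without library 2 of wild-type, Creld2 (-0.33), Manf (-0.55) and Derl3 (-1.95) were not called, and Manf was not called without library 5 either (-0.59). Leaving out either knock-in library, which left that group with 1 library assumed to vary like the other groups, ended the calls of all 8 but Sesn2. Sesn2 was called whichever of these 5 libraries was left out, with changes between -0.83 and -0.54.

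Among old IFN-γ females, Derl3 was lower in knock-in, with 0.149, 0.572, 0.427, 0.131 and 0.155 CPM against the wild-type values given above (-3.08 ± 0.53, adjusted p = 0.000321), and Psat1 was higher by 0.60 ± 0.14 (adjusted p = 0.00857). Knock-in libraries 4 and 5 of this group are those with little Xist. Over all genes tested, 3.7% were lower and 2.11% were higher. Psat1 had 80.5, 78.4, 73.2, 72.6 and 74.1 CPM in knock-in and 59.7, 39.7, 57.5, 58.4 and 34.4 CPM in wild-type, with no overlap. Without the 4 libraries that stand apart its change was 0.56 (adjusted p = 0.0591), and without wild-type library 2 alone it was not called either (adjusted p = 0.0766). Derl3 was called under both. In this comparison 4 of 7 mast cell, 2 of 10 T and NK cell and 1 of 10 plasma cell markers were lower in knock-in too. So were 2 of 10 macrophage markers, and no marker of these lists was higher. Among old IFN-γ males, Atf3, Xbp1 and Syvn1 were higher in knock-in by 0.45 ± 0.13, 0.21 ± 0.06 and 0.19 ± 0.06 (adjusted p = 0.0305, 0.0267 and 0.0412), where 4.29% of all genes were higher. Xbp1 had 210 to 229 CPM in the 5 knock-in libraries and 183 to 197 CPM in the 5 wild-type ones. These calls were lost when 1 of 6, 5 and 8 of the 10 libraries was left out, with knock-in libraries 2 and 3 and wild-type libraries 1, 3 and 5 among them for each gene, and the changes stayed between 0.15 and 0.47. With libraries that share variable segments summed, none of the 3 was called. Syvn1 was also not called without the 4 libraries that stand apart or without the filter on low counts.

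Whether the treatment label went with different changes in the 2 genotypes was tested directly for every gene. The interaction was called for 4 of the 34, where 11.9% of all genes tested were. Ddit3 and Atf3 had a higher difference in knock-in, 0.55 ± 0.14 (adjusted p = 0.00935) and 0.43 ± 0.11 (adjusted p = 0.00685). With the IFN-γ label Ddit3 changed by -0.33 in wild-type and 0.21 in knock-in, and Atf3 by -0.48 and -0.05. Pdia4 and Hsp90b1 had a lower difference in knock-in, -0.35 ± 0.10 (adjusted p = 0.0134) and -0.28 ± 0.08 (adjusted p = 0.0162), with changes of 0.18 and 0.11 in wild-type and -0.16 and -0.17 in knock-in. Without the 4 libraries that stand apart, the 5 interactions together called 12 in place of 4 of the 34. The interaction of genotype with sex called 0 of the 34 genes in edgeR and DESeq2, 7 of them had an unadjusted p under 0.05, and edgeR called 0% of all genes tested.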

How the data were processed

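Gene counts of 63 libraries were analysed as the authors deposited them, in 1 table of 56748 genes; the submitters' processing notes name STAR 2.7.9a, DESeq2 1.40.2 and GRCm39, without saying which step each served. The authors also deposited FPKM values, used here only to compare levels between genes. Libraries were grouped by title and library name. The 34 members and all gene lists were chosen with earlier results of these data known, so that no list is independent evidence of its direction. The members shown in full were set by role, and others by size of change or p.

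Counts were scaled by TMM (factors 0.886 to 1.233), filtered by edgeR's filterByExpr (22147 genes, 99.992% of counts) and fitted with edgeR 4.0.16 (R 4.3.3) by its quasi-likelihood test with 1 coefficient for each of the 16 groups over all 63 libraries. P-values were adjusted by Benjamini-Hochberg over all genes tested, and called at 0.05. The SE is the log2 change divided by the square root of F. Age, treatment and genotype contrasts weighted the groups equally. The test was run on simulated counts with independent libraries and the same dispersion for every gene. That check cannot speak to libraries that share animals or stand apart. The median depth was 98245563 counts per library, at which counting error is small for all but the scarcest members, Chac1 and Derl3. No pair of libraries agreed within sampling noise.

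Replicate numbers paired libraries, by correlated deviations, in 3 of 8 age combinations and 1 of 8 treatment combinations, and in 0 of 8 genotype combinations. Alternatives were DESeq2 1.42.0, its size factors, no filter on low counts, replicate numbers as a block, each library left out, the libraries that stand apart or the 3 knock-in old untreated males left out, and, added after seeing the data, libraries of 1 group with shared variable segments summed. Promoters came from a RefSeq table on GRCm38.p6, in which 30 of 34 members matched.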

Additional observations from a re-analysis of the deposited data

Results flagged for a closer look

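In 4 groups of 5 libraries, 1 library lay far from the other 4 in a gene of the module. Hspa5 was 1043 CPM in library 1 of wild-type old untreated females and 1355 to 1466 CPM in the others. Ddit3 was 22.3 CPM in library 1 of wild-type old IFN-γ females and 12.4 to 14.4 CPM in the others. Chac1 was 1.22 CPM in library 2 of knock-in young untreated females and 0.576 to 0.640 CPM in the others. Asns was 7.45 CPM in library 2 of wild-type young IFN-γ males and 8.24 to 8.45 CPM in the others. These were 4 of 80 group tests, and chance alone would mark about 1 in 20.

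The change with the IFN-γ label differed between the genotypes, by the test of the difference itself (knock-in minus wild-type), in 4 of the 34 genes, where 11.9% of all genes tested were called, so that this share is that of genes in general. The difference was 0.55 for Ddit3, 0.43 for Atf3, -0.35 for Pdia4 and -0.28 for Hsp90b1 on the log2 scale, with adjusted p (edgeR) of 0.00935, 0.00685, 0.0134 and 0.0162. All 4 kept their call in each fit that left out 1 library and under each other alternative.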

How the results depend on the processing

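The age label counts stayed within 1.5 times of 25 higher and 4 lower under every alternative run, with 25 to 27 and 4 to 5 when 1 library was left out, and so did their sums over the 8 combinations, 179 to 182 higher and 18 to 20 lower against 181 and 19. No result changed direction. With the treatment label, the replicate block gave 5 in place of 3 lower genes in wild-type. In knock-in, 2 genes were called, but 1 without the filter on low counts, 1 with the block, 9 without the 4 libraries that stand apart, 5 without the 3 knock-in old untreated males, 1 with libraries sharing variable segments summed, and 1 to 4 when 1 library was left out. The 15 lower genes in young knock-in females ranged from 0 to 15 and the sum of treatment calls, 39, from 22 to 41, the lowest without an IFN-γ library of that group.

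Genotype over all combinations called 2 genes, but 1 without the filter on low counts, 5 in DESeq2, 1 with the block, 4 without the 3 males, 0 with variable segments summed, and 0 to 4 when 1 library was left out. Summed over the 8 combinations, 13 calls became 24 in DESeq2, 24 with the replicate block (11 of them in young untreated females), 7 with variable segments summed, and 6 to 22 when 1 library was left out, the lowest without young IFN-γ knock-in female 1 and the highest without young untreated wild-type female 5. Interactions called 4, but 7 in DESeq2, 12 without the 4 libraries, 7 without the 3 males and 4 to 9 when 1 library was left out. A single combination was refitted only for its own libraries, and in the sums the other combinations were kept at their reported calls. The causes were not tested.

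Same-numbered libraries correlated best with each other in 16 of 26 pairs across age labels, 12 of 26 across treatment labels and 5 of 26 across genotypes. Summing libraries that agree within sampling noise gave no value, since no pair did.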
